A study of Homo sapiens with 9 samples.

Results

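The thioredoxin and peroxiredoxin system was examined in HepG2 cells, an established human liver cancer line, in which KEAP1 had been targeted by CRISPR/Cas9. The genes were taken from a list of names, TXN, TXNRD1, TXNRD2, SRXN1 and PRDX1 to PRDX6, and each was matched to the count table by its Entrez number. Of these 10 genes, 9 had a row among the 11746 rows that carry such a number, and all 9 had enough reads to be tested. SRXN1 was not analysed here, since no row carried its number.

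The study used these cells to ask whether KEAP1 controls lysosome formation in mammalian cells as well as in fish larvae. Cells were transduced with lentiCRISPRv2, which carries Cas9 and a guide, and were selected with puromycin. The 3 groups were sequenced from RNA taken 48 h after seeding. The control guide, labelled sgAAVS168, targets AAVS1 by the study's methods. It was carried by the sgCtrl cells, and the sgKeap1-1 and sgKeap1-2 cells each carried a different guide to KEAP1. All groups share the vector, Cas9 and the drug selection, and every group had 3 libraries, numbered 1 to 3 in their titles. The sources used here do not describe the isolation of single clones or say whether the libraries of a group came from separate cultures, so p-values measure the spread between these libraries, which may be technical.

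Libraries were made by a method that reads the 3' end of polyadenylated mRNA, so a count is close to 1 per captured mRNA end and was not divided by gene length. Between 3011644 and 4725840 reads per library fell in rows with an Entrez number. Values below are CPM, in which the reads of each library are brought to a common total after TMM scaling between libraries, and their precision is limited by the 3 libraries in a group. No pair of libraries of a group was close enough to be 1 library deposited more than once, since their counts differed by 4.63 to 24.1 times what counting error alone gives (chi-square per degree of freedom).

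Thioredoxin (TXN) is a small cytosolic protein that reduces disulfide bonds in other proteins. It is kept in its reduced form by thioredoxin reductase, a selenium-containing enzyme that uses NADPH and has a cytosolic form (TXNRD1) and a mitochondrial form (TXNRD2). The peroxiredoxins remove hydrogen peroxide and organic peroxides with a reactive cysteine, which most of them regain through thioredoxin, and sulfiredoxin (SRXN1) repairs that cysteine after it has been overoxidised. NRF2, the transcription factor that KEAP1 holds back, binds antioxidant response elements, and several genes of this system are textbook targets of it.

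The core of such an element was searched in the promoter windows of RefSeq (GRCh38.p14), each running from 250 bases before to 50 bases after a start site. The letters were TGACNNNGC, on either strand, so that a match on the opposite strand reads GCNNNGTCA. Of 35116 windows of this length, 4687 (13.3%) held at least 1 match. The table had 12 windows for 8 of the 10 genes, including SRXN1. A match was present in both windows of TXNRD1 and in no window of TXN, TXNRD2, SRXN1, PRDX2, PRDX3, PRDX4 or PRDX5. The windows of TXNRD1 are shown because its mRNA changed most in these cells, and that of TXN, the substrate of its enzyme, and the first of the 3 windows of TXNRD2, its mitochondrial counterpart, are shown for comparison. Capitals mark the matches, and each window is written 5′ to 3′ on the strand of its gene.
TXNRD1, first window, chr12:104215529-104215828, plus strand: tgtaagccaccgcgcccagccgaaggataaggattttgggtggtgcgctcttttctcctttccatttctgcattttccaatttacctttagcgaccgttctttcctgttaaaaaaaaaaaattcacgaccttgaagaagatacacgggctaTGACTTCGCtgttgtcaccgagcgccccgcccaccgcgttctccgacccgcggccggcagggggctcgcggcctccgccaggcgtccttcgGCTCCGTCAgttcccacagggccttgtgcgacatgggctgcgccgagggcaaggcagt
TXNRD1, second window, chr12:104286782-104287081, plus strand: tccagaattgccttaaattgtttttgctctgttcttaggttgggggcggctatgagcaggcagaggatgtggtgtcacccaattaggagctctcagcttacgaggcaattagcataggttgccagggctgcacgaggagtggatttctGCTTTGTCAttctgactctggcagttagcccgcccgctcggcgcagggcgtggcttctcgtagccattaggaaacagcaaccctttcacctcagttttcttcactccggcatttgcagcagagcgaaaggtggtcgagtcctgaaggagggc
TXN, chr9:110256458-110256757, minus strand: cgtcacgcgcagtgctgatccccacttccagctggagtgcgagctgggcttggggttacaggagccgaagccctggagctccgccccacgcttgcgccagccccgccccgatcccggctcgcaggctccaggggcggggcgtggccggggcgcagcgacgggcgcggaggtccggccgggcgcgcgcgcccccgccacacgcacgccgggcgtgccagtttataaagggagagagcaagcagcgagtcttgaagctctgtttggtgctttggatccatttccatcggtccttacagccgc
TXNRD2, first window, chr22:19941769-19942068, minus strand: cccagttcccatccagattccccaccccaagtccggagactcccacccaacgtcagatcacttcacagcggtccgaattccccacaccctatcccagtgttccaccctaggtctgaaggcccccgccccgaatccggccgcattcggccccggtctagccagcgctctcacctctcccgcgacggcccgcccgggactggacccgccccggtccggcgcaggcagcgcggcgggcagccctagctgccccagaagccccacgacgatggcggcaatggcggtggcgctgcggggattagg

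In the first TXNRD1 window, TGACTTCGC begins 99 bases before the start site on the strand of the gene, and GCTCCGTCA begins 8 bases before it and is a match on the opposite strand. The second window holds GCTTTGTCA, again on the opposite strand, 102 bases before its own start site. The remaining windows shown hold none of these letters. A match is a description of the letters, and a window without one says nothing on sites elsewhere.

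KEAP1 mRNA itself was read at 63.1, 89.0 and 85.3 CPM in sgCtrl replicates 1, 2 and 3. It was read at 64.0, 62.5 and 53.3 CPM with sgKeap1-1 and at 81.8, 85.5 and 73.9 CPM with sgKeap1-2. Both KEAP1-guide groups overlapped sgCtrl, and neither difference passed the test (log2 fold change -0.40, adjusted p = 0.211, and 0.02, adjusted p = 0.952, edgeR). A count of 3' ends does not read the edit made by a guide, so these values do not check the labels.

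Among the genes of the system, 1 of 9 rose with sgKeap1-1 (TXNRD1) and 2 of 9 rose with sgKeap1-2 (TXNRD1 and PRDX1), and 0 of 9 fell with either guide (edgeR quasi-likelihood test, adjusted p under 0.05 over 11064 rows tested). Over all rows tested, 2.8% were called higher and 1.4% lower with sgKeap1-1, and 5.96% were called higher and 4.85% lower with sgKeap1-2. At an unadjusted p under 0.05, 3 of the 9 differed from sgCtrl in each comparison, all of them upward, beside 15% of all rows with sgKeap1-1 and 23.3% with sgKeap1-2 in either direction. The median log2 fold change of the 9 genes was 0.31 with sgKeap1-1 and 0.39 with sgKeap1-2, beside -0.00 and -0.01 over all rows tested. Both comparisons share the sgCtrl libraries, so their likeness is not independent.

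**Figure D1:**
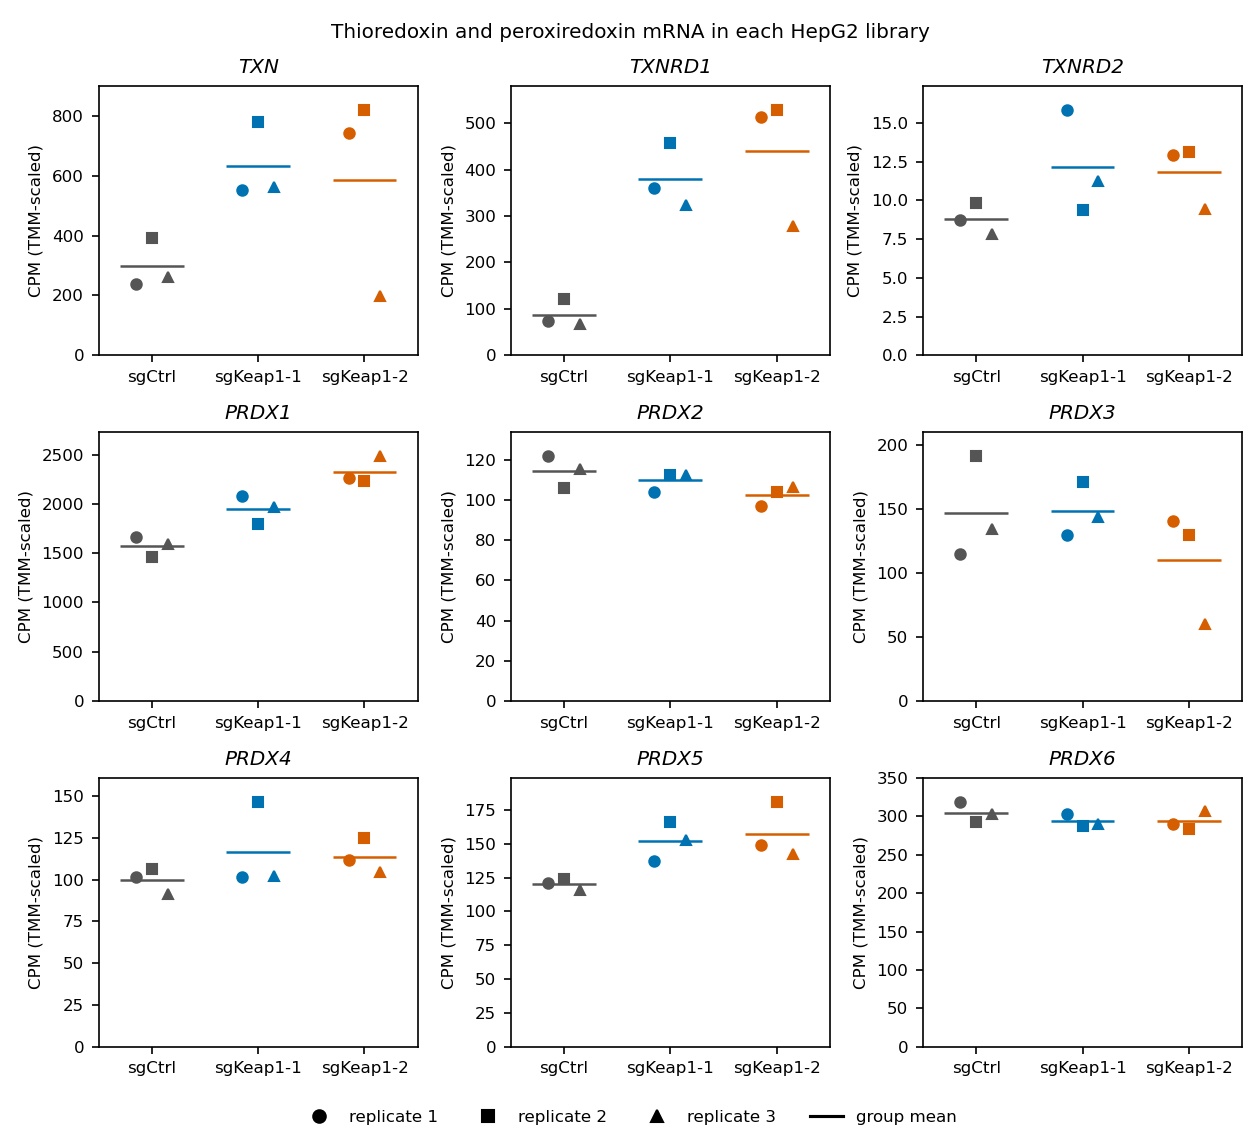
CPM of each gene (vertical axes, from 0) in the 3 libraries of sgCtrl (grey), sgKeap1-1 (blue) and sgKeap1-2 (orange), with the group mean as a line and the replicate number as the symbol. TXNRD1, PRDX1 and PRDX5 lie above every sgCtrl library in both KEAP1-guide groups, and TXN falls to 198 CPM in sgKeap1-2 replicate 3.

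TXNRD1, which recharges cytosolic thioredoxin, changed most of the 9 genes. Its level in sgCtrl replicates 1, 2 and 3 was 73.2, 121 and 67.5 CPM. With sgKeap1-1 it was 361, 457 and 324 CPM, and with sgKeap1-2 it was 513, 528 and 278 CPM. Every KEAP1-guide library lay above every sgCtrl library, the lowest of them being sgKeap1-2 replicate 3. TXNRD1 rose 4.38-fold with sgKeap1-1 (log2 fold change 2.13, SE 0.29, adjusted p = 0.00193, edgeR) and 5.05-fold with sgKeap1-2 (log2 fold change 2.34, SE 0.29, adjusted p = 0.000577). This call held in all 21 fits made for each comparison, with log2 fold changes of 1.98 to 2.44 for sgKeap1-1 and 2.18 to 2.64 for sgKeap1-2.

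TXNRD2, the mitochondrial reductase, had the lowest level of the 9 genes, with 28 to 65 reads per library. Its levels were 8.72, 9.86 and 7.81 CPM in sgCtrl, 15.8, 9.37 and 11.3 CPM with sgKeap1-1, and 12.9, 13.2 and 9.45 CPM with sgKeap1-2. The groups overlapped. The log2 fold changes of 0.47 (95% interval -0.10 to 1.04) and 0.43 (-0.15 to 1.00) did not pass the test (adjusted p = 0.462 and 0.373, edgeR), and at this depth a rise of the size seen for TXNRD1 lies outside both intervals. The value with sgKeap1-1 was 0.23 without sgKeap1-1 replicate 1 and 0.63 without replicate 2. The ratio of TXNRD1 to TXNRD2 reads was 9.77 ± 2.17 in sgCtrl, 33.4 ± 13.6 with sgKeap1-1 and 36.4 ± 6.10 with sgKeap1-2 (SD, n = 3 libraries each). The lowest ratio with a KEAP1 guide, 22.9, lay above the highest in sgCtrl, 12.3.

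TXN, the substrate of TXNRD1, was read at 237, 392 and 262 CPM in sgCtrl replicates 1, 2 and 3 and at 554, 781 and 562 CPM with sgKeap1-1. With sgKeap1-2 it was read at 742, 819 and 198 CPM. All 3 sgKeap1-1 libraries and 2 sgKeap1-2 libraries lay above every sgCtrl library, whereas sgKeap1-2 replicate 3 lay below them all. The log2 fold changes were 1.09 (SE 0.50, adjusted p = 0.373, edgeR) and 0.98 (SE 0.49, adjusted p = 0.294), with 95% intervals of -0.07 to 2.25 and -0.18 to 2.14, so neither passed the test. All 9 libraries were fitted together, so the spread of sgKeap1-2 replicate 3 also enters the SE and interval for sgKeap1-1. With only the groups compared in the fit, TXN was at 1.09 with sgKeap1-1 (SE 0.21, adjusted p = 0.0169, edgeR). With sgKeap1-2 it was then at 0.98 (SE 0.55, adjusted p = 0.376, edgeR). TXN was the gene of the 9 whose call turned on 1 library in both comparisons. Without sgKeap1-2 replicate 3, its log2 fold changes were 1.09 (SE 0.20, adjusted p = 0.00859, edgeR) and 1.40 (SE 0.21, adjusted p = 0.00207).

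Relative to TXNRD1, TXN reads were fewer in every KEAP1-guide library. The ratio of TXN to TXNRD1 reads was 3.24, 3.24 and 3.88 in sgCtrl replicates 1, 2 and 3. It was 1.53, 1.71 and 1.74 with sgKeap1-1 and 1.45, 1.55 and 0.714 with sgKeap1-2. The groups did not overlap in this ratio, and sgKeap1-2 replicate 3 was again the lowest.

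Of the peroxiredoxins, PRDX1, the abundant cytosolic form, had the highest level. It was read at 1664, 1457 and 1594 CPM in sgCtrl, at 2078, 1798 and 1968 CPM with sgKeap1-1 and at 2261, 2232 and 2484 CPM with sgKeap1-2. Neither KEAP1-guide group overlapped sgCtrl, nor did they overlap each other. PRDX1 rose 1.48-fold with sgKeap1-2 (log2 fold change 0.56, SE 0.11, adjusted p = 0.00484, edgeR). With sgKeap1-1 the ratio was 1.24 and did not pass the test (log2 fold change 0.31, SE 0.11, unadjusted p = 0.0164, adjusted p = 0.182, edgeR).

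PRDX5, a peroxiredoxin found in mitochondria, peroxisomes and the cytosol, had small differences of the same direction. Its levels were 121, 124 and 116 CPM in sgCtrl, 137, 166 and 153 CPM with sgKeap1-1, and 149, 181 and 143 CPM with sgKeap1-2. Every KEAP1-guide library lay above every sgCtrl library. The log2 fold changes were 0.34 (SE 0.13, adjusted p = 0.213, edgeR) and 0.39 (SE 0.13, adjusted p = 0.0775), and neither passed this test. With the replicate number as a block, PRDX5 had adjusted p = 0.0756 with sgKeap1-1 and 0.0231 with sgKeap1-2 (edgeR).

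In the counts of groups that do not overlap, 4 of 9 genes (TXN, TXNRD1, PRDX1 and PRDX5) were higher in every sgKeap1-1 library than in every sgCtrl library, beside 11.5% of all rows tested. For sgKeap1-2 this held for 3 of 9 (TXNRD1, PRDX1 and PRDX5), beside 14.4% of all rows.

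The other peroxiredoxins did not pass the test with either guide. PRDX2, also cytosolic, was read at 122, 106 and 115 CPM in sgCtrl, 104, 113 and 113 CPM with sgKeap1-1, and 97.1, 104 and 106 CPM with sgKeap1-2. PRDX6, which relies on glutathione rather than thioredoxin, was read at 318, 292 and 303 CPM, at 303, 287 and 289 CPM, and at 290, 284 and 307 CPM in the same order of groups. Both genes were steady between libraries, with log2 fold changes between -0.16 and -0.05 for the 2 genes and guides (adjusted p = 0.476 to 0.897, edgeR). With 1 library left out, PRDX2 ran from -0.11 to -0.013 with sgKeap1-1 and from -0.21 to -0.11 with sgKeap1-2. PRDX6 ran from -0.084 to -0.021 with sgKeap1-1 and from -0.085 to -0.020 with sgKeap1-2. The widest of their 95% intervals, that of PRDX2 with sgKeap1-2, ran from -0.42 to 0.10.

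PRDX4, the form of the endoplasmic reticulum, was read at 101, 106 and 91.2 CPM in sgCtrl, 102, 146 and 102 CPM with sgKeap1-1, and 112, 125 and 105 CPM with sgKeap1-2. The groups overlapped, and the log2 fold changes were 0.23 (adjusted p = 0.566, edgeR) and 0.19 (adjusted p = 0.526). The former ranged from 0.032 without sgKeap1-1 replicate 2, the library at 146 CPM, to 0.32 without sgKeap1-1 replicate 1. PRDX3, the mitochondrial form, was read at 115, 191 and 135 CPM in sgCtrl, 130, 171 and 144 CPM with sgKeap1-1, and 140, 130 and 60.3 CPM with sgKeap1-2. Here sgKeap1-2 replicate 3 was the lowest of the 9 libraries. PRDX3 had log2 fold changes of 0.02 (95% interval -0.63 to 0.66) and -0.42 (-1.07 to 0.24), with adjusted p = 0.992 and 0.451 (edgeR). A change of some size in either direction was thus not detectable in this fit of all 9 libraries. With only sgKeap1-1 and sgCtrl fitted, the log2 fold change was also 0.02, with an SE of 0.18 in place of 0.29. With sgKeap1-2 the value was -0.12 without sgKeap1-2 replicate 3 and -0.18 without sgCtrl replicate 2. It was -0.57 without sgCtrl replicate 1, and the lowest value with 1 library left out was -0.63.

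**Figure D2:**
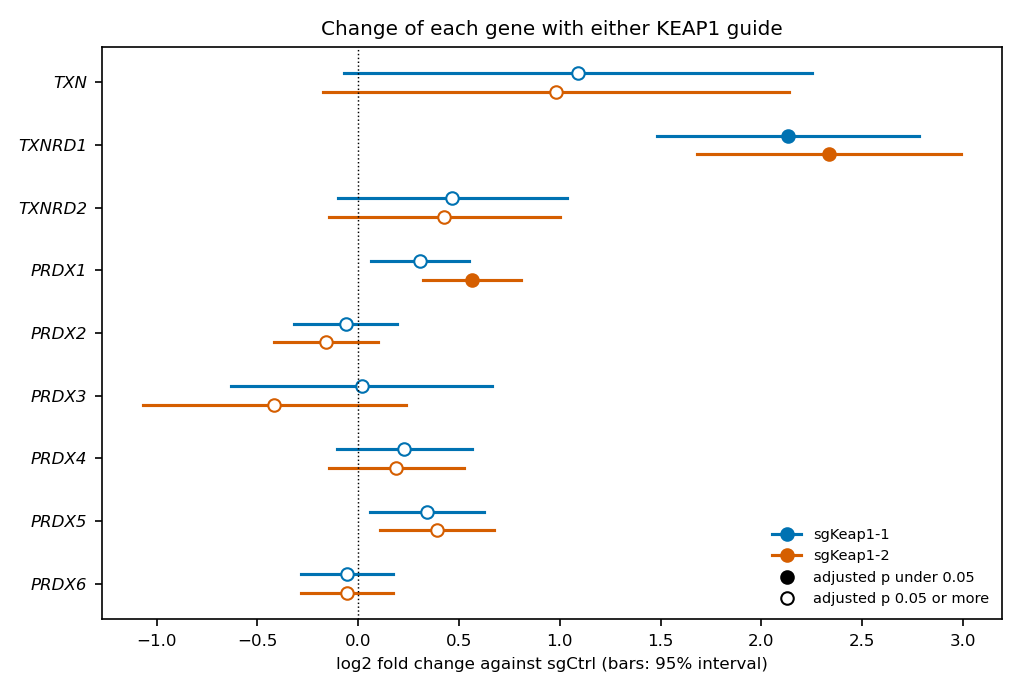
Log2 fold change of each gene against sgCtrl (horizontal axis) with its 95% interval for sgKeap1-1 (blue) and sgKeap1-2 (orange), filled where the adjusted p was under 0.05. TXNRD1 stands at 2.13 and 2.34, PRDX1 is filled for sgKeap1-2 only, and the intervals of TXN are the widest for both guides.

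With the 6 KEAP1-guide libraries as 1 group against sgCtrl, 2 of 9 genes rose, beside 5.51% of all rows tested. They were TXNRD1 (log2 fold change 2.24, SE 0.26, adjusted p = 0.000257, edgeR) and PRDX1 (0.44, SE 0.11, adjusted p = 0.0206). PRDX5 was just outside the threshold, at 0.37 (SE 0.11, adjusted p = 0.0544, edgeR), and TXN was at 1.04 (SE 0.42, adjusted p = 0.185). PRDX5 passed with the replicate block (adjusted p = 0.0197, edgeR), without scaling (adjusted p = 0.0481, edgeR) and by DESeq2 (adjusted p = 0.0282). The call of PRDX1 in this comparison was lost without any 1 of the sgCtrl libraries, with adjusted p = 0.0617, 0.0976 and 0.0841 without replicates 1, 2 and 3 (edgeR). Its log2 fold change in these fits was 0.49, 0.39 and 0.45, beside 0.44 with all libraries.

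Between the guides, 0 of 9 genes differed by edgeR, beside 0.0181% of all rows, and limma-voom and DESeq2 also called 0. At an unadjusted p under 0.05 there was 1 of 9, beside 5.08% of all rows. It was PRDX1, which was higher with sgKeap1-2 (log2 difference 0.26, 95% interval 0.01 to 0.50, unadjusted p = 0.0405, adjusted p = 0.966, edgeR). PRDX1 was also the 1 gene of 9 whose guide groups did not overlap, beside 10.4% of all rows tested. For TXNRD1 the log2 difference between the guides was 0.21, with an interval of -0.41 to 0.82, and leaving out 1 library gave 0.062 to 0.45. For TXN it was -0.11, with an interval of -1.25 to 1.03, so a difference of more than 2-fold in either direction was not excluded by these libraries.

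The 9 genes together took 0.278, 0.274 and 0.270% of reads in sgCtrl replicates 1, 2 and 3. Their share was 0.383, 0.382 and 0.376% with sgKeap1-1 and 0.445, 0.439 and 0.362% with sgKeap1-2. All KEAP1-guide libraries lay above all sgCtrl libraries, with sgKeap1-2 replicate 3 the lowest of them. Without PRDX1, the other 8 genes summed to at most 1343 CPM in sgCtrl, to 1707, 2132 and 1698 CPM with sgKeap1-1 and to 2056, 2182 and 1206 CPM with sgKeap1-2. In that sum sgKeap1-2 replicate 3 was the 1 KEAP1-guide library that overlapped sgCtrl. PRDX1 alone gave 57.2 ± 4.48% of the reads of the 9 genes in sgCtrl, 51.4 ± 4.97% with sgKeap1-1 and 56.8 ± 9.20% with sgKeap1-2 (SD, n = 3). By mean level in sgCtrl, PRDX1 ranked 65th of the 11746 rows, PRDX6 549th, TXN 570th, TXNRD1 2440th and TXNRD2 8865th. The sgCtrl means of PRDX6 and TXN, 305 ± 13.1 and 297 ± 83.3 CPM (SD, n = 3), differed by less than their spread. PRDX5, at 120 ± 4.05 CPM, and PRDX2, at 114 ± 7.93 CPM, overlapped in their single libraries.

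**Figure D3:**
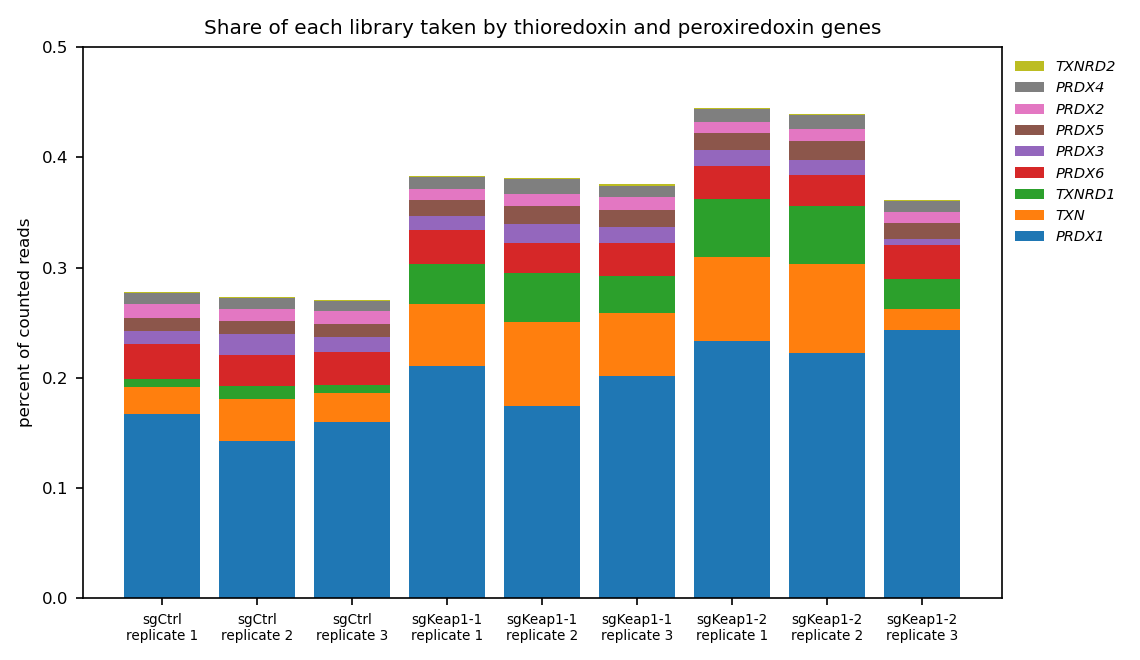
Percent of the counted reads of each library (vertical axis, from 0) taken by the 9 genes, stacked by gene, for each library of the 3 groups. The totals run from 0.270 to 0.278% in sgCtrl and from 0.362 to 0.445% with the KEAP1 guides, and PRDX1 is the largest segment in all 9 libraries.

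The genes fell apart in how far they varied within a group. In sgKeap1-2 replicate 3, TXN was lower than the mean of the other sgKeap1-2 libraries by a log2 difference of -1.97, which placed it at the 0.66th percentile of the 11064 rows in that library. PRDX3 was at -1.15 (3.29th percentile) and TXNRD1 at -0.90 (5.98th percentile). PRDX1, PRDX2 and PRDX6 were not lower there, at 0.15, 0.08 and 0.09. The replicate 2 libraries were the highest of their group for TXN and TXNRD1. TXN stood above the other libraries by log2 differences of 0.65 in sgCtrl and 0.49 in sgKeap1-1, and TXNRD1 by 0.78 and 0.42. In sgKeap1-2, replicates 1 and 2 were close, at 742 and 819 CPM for TXN and 513 and 528 CPM for TXNRD1.

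Across the 9 libraries, with each group's mean removed, the correlation of log2 CPM was 0.97 between TXN and PRDX3, 0.91 between TXN and TXNRD1 and 0.92 between TXNRD1 and PRDX3. It was 0.91 between PRDX1 and PRDX6 and -0.86 between PRDX1 and PRDX3. These are descriptions over 9 libraries, whose points share depth and library composition, and sgKeap1-2 replicate 3 is an extreme point for TXN and PRDX3.

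**Figure D4:**
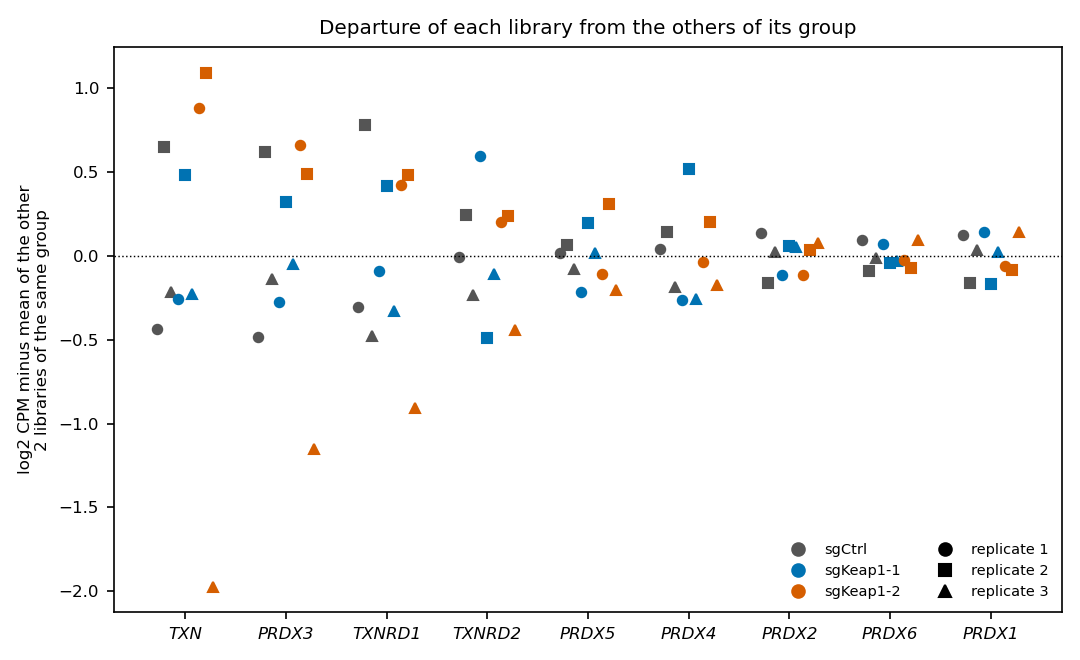
Log2 CPM of each library minus the mean of the other 2 libraries of its group (vertical axis) for the 9 genes, coloured by group and with the replicate number as the symbol. TXN, PRDX3 and TXNRD1 spread widely, with sgKeap1-2 replicate 3 at -1.97, -1.15 and -0.90, whereas PRDX1, PRDX2 and PRDX6 stay near 0.

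Because sgKeap1-2 replicate 3 stood apart for these genes, the counts of these 9 genes were repeated without it, a choice made after its values were seen. The genes that rose with sgKeap1-1 were then 2 of 9 (TXN and TXNRD1), beside 3.87% of all rows. With sgKeap1-2 they were 4 of 9 (TXN, TXNRD1, PRDX1 and PRDX5), beside 6.13% of all rows, and 0 of 9 fell in either comparison. The same 4 genes rose in the 6-library comparison reduced to 5 libraries, beside 6.37% of all rows. PRDX5 then had a log2 fold change of 0.46 with sgKeap1-2 (SE 0.13, adjusted p = 0.0351, edgeR). Why this library differed was not tested.

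**Figure D5:**
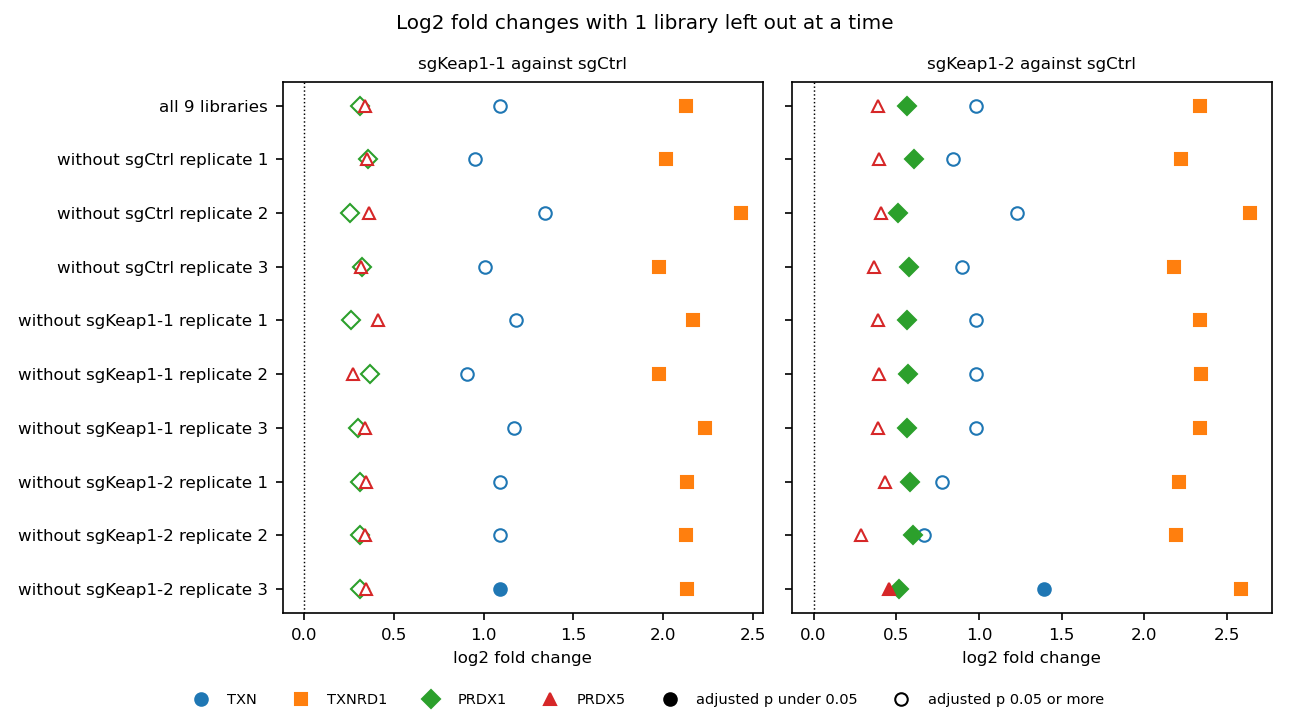
Log2 fold change (horizontal axes) of TXN, TXNRD1, PRDX1 and PRDX5 against sgCtrl with all 9 libraries and then without 1 library at a time, filled where the adjusted p was under 0.05. TXNRD1 is filled in every fit, PRDX1 in every fit for sgKeap1-2, and TXN only without sgKeap1-2 replicate 3.

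Other genes that work with thioredoxin or beside it were read from lists. Of 21 other thioredoxin-fold and glutaredoxin genes, 20 had a row and were tested. With sgKeap1-1 2 of them fell and 0 rose, and with sgKeap1-2 2 fell and 1 rose. Over all rows tested, 1.4% fell and 2.8% rose with sgKeap1-1, and 4.85% fell and 5.96% rose with sgKeap1-2. Those that fell with both guides were TXNDC16, whose protein has thioredoxin-like domains, and GLRX5, a mitochondrial glutaredoxin that takes part in making iron-sulfur clusters. TXNDC16 was read at 16.4, 15.0 and 22.9 CPM in sgCtrl, 10.2, 6.10 and 7.09 CPM with sgKeap1-1 and 5.84, 4.87 and 8.97 CPM with sgKeap1-2. Its levels did not overlap sgCtrl with either guide (log2 fold change -1.22, adjusted p = 0.0272, and -1.46, adjusted p = 0.00539, edgeR). GLRX5 was read at 397, 384 and 348 CPM in sgCtrl, 260, 268 and 302 CPM with sgKeap1-1 and 241, 233 and 238 CPM with sgKeap1-2. It too was lower in every KEAP1-guide library (log2 fold change -0.45, adjusted p = 0.0387, and -0.67, adjusted p = 0.00143, edgeR). NXN, nucleoredoxin, rose with sgKeap1-2 (log2 fold change 0.64, adjusted p = 0.0265, edgeR) and was at 0.42 with sgKeap1-1 (adjusted p = 0.262). GLRX, a cytosolic glutaredoxin, did not pass (log2 fold change 0.92, adjusted p = 0.540, and 0.72, adjusted p = 0.527, edgeR), but with the replicate number as a block it did with both guides (adjusted p = 0.00183 and 0.00740). Of all 11064 rows, the block called 977 with sgKeap1-1 and 1956 with sgKeap1-2, beside 465 and 1196 without it. Over the 20 genes tested, the middle log2 fold change (median) came to 0.08 for sgKeap1-1 and 0.06 for sgKeap1-2.

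Of 14 inhibitors, partners and electron acceptors of thioredoxin, 13 had a row and 12 were tested, and 0 passed in either comparison by edgeR, limma-voom or DESeq2. At an unadjusted p under 0.05 there were 3 of 12 with sgKeap1-1 and 4 of 12 with sgKeap1-2, beside 15% and 23.3% of all rows. Without sgKeap1-2 replicate 3, MSRB3, a methionine sulfoxide reductase, fell with sgKeap1-2 (log2 fold change -1.46, adjusted p = 0.0299, edgeR), and it was at -1.10 (adjusted p = 0.0795) with all libraries. The replicate block called SESN3 higher with sgKeap1-1 (adjusted p = 0.0346, edgeR), and MSRB3 and SESN1 lower with sgKeap1-2 (adjusted p = 0.0294 and 0.0365). Of all 11064 rows, that block called 977 with sgKeap1-1 and 1956 with sgKeap1-2 in either direction. TXNIP, which binds thioredoxin and blocks it, was read at 130, 154 and 102 CPM in sgCtrl, 119, 15.3 and 108 CPM with sgKeap1-1 and 99.0, 32.9 and 76.6 CPM with sgKeap1-2. Its lowest values were in the replicate 2 libraries of the KEAP1-guide groups, while sgCtrl replicate 2 was the highest of its group. The log2 fold changes of TXNIP were -0.68 (SE 0.71, adjusted p = 0.772, edgeR) and -0.89 (SE 0.72, adjusted p = 0.534). The median of the list was -0.09 and -0.20.

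Of 11 other peroxide and superoxide removing enzymes, 10 had a row and 9 were tested. With each guide 1 of them rose, beside 2.8% and 5.96% of all rows, and 1 fell with sgKeap1-2, beside 4.85% of all rows. GPX2, a glutathione peroxidase, was read at 245, 152 and 203 CPM in sgCtrl, 507, 405 and 424 CPM with sgKeap1-1 and 615, 533 and 579 CPM with sgKeap1-2. Its groups were far apart, and it rose with both guides (log2 fold change 1.15, adjusted p = 0.000541, and 1.52, adjusted p = 2.48e-05, edgeR). GPX7, a peroxidase of the endoplasmic reticulum, fell with sgKeap1-2 (log2 fold change -1.16, adjusted p = 0.0414, edgeR). This call was lost without sgKeap1-2 replicate 3 (log2 fold change -0.89, adjusted p = 0.113, edgeR). The replicate block also called SOD2 lower and GPX3 higher with sgKeap1-2 (adjusted p = 0.00215 and 0.0267, edgeR), beside 1956 of all 11064 rows in either direction. The median of the list was 0.09 and 0.13. Of 11 genes for disulfide formation in the endoplasmic reticulum and 7 for selenocysteine insertion, all were tested and 0 passed in either comparison by edgeR, limma-voom or DESeq2. At an unadjusted p under 0.05 there were 0 and 1 of the first list with sgKeap1-1 and sgKeap1-2, and 0 and 2 of the second, beside the same 15% and 23.3% of all rows. The medians were 0.13 and 0.12 for the first list and -0.06 and -0.31 for the second. In the second list, the replicate block called SEPHS2 lower with sgKeap1-2 (adjusted p = 0.0294, edgeR), beside the same 1956 of all rows.

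Among the genes whose log2 CPM over the 9 libraries was most like that of TXNRD1 were GCLC and ASPH, each with a Pearson correlation of 0.99. GCLC encodes the catalytic subunit of the enzyme that starts glutathione synthesis. The 9 points share their groups and libraries, so this is a description.

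HepG2 cells express many genes of hepatocytes, and all 10 hepatocyte markers that were looked for had a row. Their summed level was 32665 to 40129 CPM in sgCtrl, 18869 to 23704 CPM with sgKeap1-1 and 15607 to 17395 CPM with sgKeap1-2, so it was lower in every KEAP1-guide library. In bulk libraries fewer cells of a state and less mRNA per cell cannot be told apart, and the part of this difference in the values above was not tested. Of other cell types, 1 of 5 stromal, 0 of 3 endothelial and 2 of 4 immune markers had a row, at summed levels of at most 5.10 CPM for the stromal gene and 16.0 CPM for the immune genes.

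Some rows may hold reads of neighbours, since the strand setting of the counting is not given in the sources used here. In RefSeq the span of TXNRD1 overlaps EID3 and RPL18AP3, that of PRDX1 overlaps MMACHC and that of PRDX5 overlaps TRMT112, and each of these had a row of its own. Pseudogenes named after TXN (7), PRDX2 (4), PRDX3 (4), PRDX4 (2), PRDX1 (1) and PRDX5 (1) are listed there and none had a row, so how their reads were assigned is not known for these genes.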

How the data were processed

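RNA of 9 HepG2 libraries (3 per group) was extracted 48 h after seeding. Per the labels and the study's methods, the authors used QuantSeq 3' libraries, FastQC (0.72), cutadapt (1.16), STAR (2.7.5b) and featureCounts (1.6.3), and deposited whole-number counts per gene. The submitters' notes name hg38, whereas the study's methods name GRCh37. Annotation, strand setting and low-count filter are not given in the sources used here. All 12798 rows exceeded 0.5 CPM in at least 3 libraries, so rows had been filtered before deposit. All 9 sample columns matched a title, and 0 were left unused.

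Rows without an Entrez number (1052 rows, 1.34% of counts) were left out. Symbols came from RefSeq (GRCh38.p14) by Entrez number. Rows passing filterByExpr (11064) were tested with edgeR (4.0.16, R 4.3.3), with TMM scaling, a robust quasi-likelihood fit, group as the only factor and Benjamini-Hochberg adjustment over all rows tested, at 0.05. All 9 libraries entered each fit, so the spread within every group contributes to the SE of every comparison. Log2 CPM used a prior count of 2. Scripts were tested on simulated data. Depth was 3011644 to 4725840 counts per library.

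The genes named are the 10 chosen genes, KEAP1, TXNIP, list genes past the threshold with both guides (at most 4 per list), and the 3 genes most like TXNRD1, of which 1 is not reported here. NXN, GPX7, GPX3, MSRB3, GLRX, SESN1, SESN3, SOD2 and SEPHS2 were named after their values were seen. Members and lists were chosen with earlier results of these data known. Alternatives were DESeq2 size factors, no scaling, limma-voom (limma 3.58.1), DESeq2 (1.42.0), other count filters (at least 10 counts in every library, or none), only the groups compared, a non-robust fit, a replicate block and each library left out. Keeping rows without an Entrez number, and the block without sgKeap1-2 replicate 3, were added after the data were seen.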

Additional observations from a re-analysis of the deposited data

How the results depend on the processing

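Of 711 log2 fold changes of the 9 genes refitted under the alternatives, 672 kept their direction and side of the threshold, 17 passed it newly, 3 no longer passed and 19 changed sign, none of the 19 past the threshold in either fit. With 1 library left out, the log2 fold change of PRDX3 ranged from -0.13 to 0.25 with sgKeap1-1 and from -0.33 to 0.051 with both guides. Between the guides it ranged from -0.42 to 0.30 for TXN, -0.20 to 0.20 for TXNRD2, -0.13 to 0.16 for PRDX4, -0.050 to 0.12 for PRDX5 and -0.030 to 0.037 for PRDX6. PRDX6 was at -0.00020 there without scaling. The cause was not tested. The number of the 9 genes called was 1 with sgKeap1-1, 2 with sgKeap1-2 and 2 with both guides. Leaving out 1 library gave 1 to 2, 2 to 4 and 1 to 4, and the highest values came without sgKeap1-2 replicate 3. Over all rows the same fits called 278 to 688, 764 to 1291 and 607 to 1236, the lowest without sgCtrl replicate 1. The calls with sgKeap1-1 were 287 without sgCtrl replicate 3 and 285 without sgKeap1-1 replicate 1. The calls with sgKeap1-2 and with both guides were 778 and 625 without sgCtrl replicate 3. Fitting only the groups compared gave 2 with sgKeap1-1 (TXN added, adjusted p = 0.0169, edgeR), beside 543 of 10807 rows.

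Same-numbered libraries of different groups correlated in their departures from the group mean by -0.01 to 0.52 (mean 0.23, beside -0.12 for different numbers). Of these 9 pairs, 7 were over 0.1, and 5 of 9 libraries correlated best with their own number in both of the other groups. The sample descriptions give same-numbered libraries a common prefix whose meaning is not stated. The numbers were not taken as pairs, since not every pair was over 0.1, though all 3 of sgCtrl with sgKeap1-1 were. With a replicate block, 1, 3, 0 and 3 of the 9 genes were called with sgKeap1-1, sgKeap1-2, between guides and with both, PRDX5 being added (adjusted p = 0.0231 and 0.0197, edgeR), and the calls over all rows were 977, 1956, 26 and 1609 in place of 465, 1196, 2 and 1067. With the block and without sgKeap1-2 replicate 3, 4, 4, 0 and 4 of the 9 genes were called, beside 1481, 2043, 59 and 1900 of all rows, and the guides then differed by 0.25 for TXN, 0.066 for TXNRD2 and -0.036 for PRDX6 (log2). In the 5 lists, the block alone added 2 calls with sgKeap1-1 and 6 with sgKeap1-2. TXNRD2 rested on 28 to 65 reads per library, the fewest of the 9 genes.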
